A study of Mus musculus with 10 samples.

Results

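The 4 mouse genes of the FoxO family, Foxo1, Foxo3, Foxo4 and Foxo6, were examined for binding of the glucocorticoid receptor (GR), for binding of lysine-specific demethylase 1 (LSD1) and for 2 histone marks in skeletal muscle. The genes were chosen by name, as 4 of 26180 RefSeq genes on the mouse genome build GRCm38 (mm10). The rule for choosing them used no measured value, but earlier results of these data were known when they were chosen. A peak was assigned to a gene when its midpoint lay in the gene body or within 30 kb of a transcription start site (TSS). This region is called the window of the gene. Muscle came from C57BL/6J mice, aged 10 weeks according to the sample labels, whereas the text of the study gives another age. The mice were either fed or starved for 24 h, and no allele or other treatment is named in the labels. Chromatin immunoprecipitation sequencing (ChIP-seq) was performed on muscle nuclei with antibodies to GR, LSD1, and histone H3 mono- or dimethylated at lysine 9 (H3K9me1, H3K9me2), and input chromatin served as the control. Each of the 10 groups had 1 library, so the spread between replicates is unknown, no test between fed and starved muscle could be run, and every difference given below is one between single libraries. The GR libraries shared 1 library code and the LSD1 libraries shared another. For either mark the code of the fed library was not that of the starved library, so code and condition cannot be told apart for the marks. The authors called peaks in each library against input, and each peak carries their fold enrichment over input and their q-value, a false discovery rate. The methods of the study name a limit of 0.01 on this rate, but all 8 deposited lists hold peaks above it, so counts are given for the lists as deposited and, where it matters, with that limit. The depth of the libraries is unknown.

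FoxO proteins are forkhead transcription factors that bind DNA through a winged helix domain. Insulin and growth factors restrain them, since the kinase AKT phosphorylates them and they then leave the nucleus. When insulin is low they stay in the nucleus and, in muscle, switch on genes of the ubiquitin-proteasome system and of autophagy. FoxO1 and FoxO3 are the members studied most in muscle wasting, FoxO4 is a widely expressed relative encoded on the X chromosome, and FoxO6 is best known from the brain and moves between nucleus and cytoplasm less readily. Glucocorticoids, which rise in starvation, act through GR, a nuclear receptor that binds the glucocorticoid response element (GRE). LSD1 removes methyl groups from histone H3.

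The tissue label was checked with marker genes. Of 7 skeletal muscle genes, 5 had a GR peak in the promoter in each condition, and 4 and 5 had an LSD1 peak in fed and starved muscle. Myh4, a muscle gene on this list, had none in any of these 4 lists. None of 8 genes of other tissues had one either. Over all genes 13.4% had a GR fed and 23.3% a GR starved promoter peak. For LSD1 the shares were 22.4% and 16.2%, so the absence at 8 genes says little about the tissue. Muscle nuclei come from fibres and from other cells, and peaks cannot be assigned to a cell type in these data.

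The sequences shown first are places in the FoxO windows where peaks of at least 2 GR or LSD1 lists overlapped. They were chosen to show the strongest GR sites of Foxo3 and Foxo6 and the strongest LSD1 fed site of Foxo6. The promoters of Foxo1 and Foxo6 were also chosen. The highest LSD1 fed peak of Foxo3, at its TSS, is not among them. Each sequence is the stretch common to the overlapping peaks on GRCm38, read 5′ to 3′ on the strand of the gene. Capitals mark the forkhead core GTAAACA, the sequence to which FoxO and other forkhead proteins bind, or its reverse complement TGTTTAC. The first site is in the second intron of Foxo3 (chr10:42251299-42251569, minus strand), where GR fed, GR starved and LSD1 fed peaks overlapped. The next is farther into the same intron (chr10:42205113-42205359, minus strand), in the same 3 lists. The Foxo6 intron site (chr4:120277577-120277800, minus strand) and the Foxo6 promoter site (chr4:120287910-120288055, minus strand) were also common to these 3 lists. The Foxo6 upstream site (chr4:120289695-120289804, minus strand) was common to GR fed and GR starved. In the Foxo1 promoter, 1 stretch was common to GR fed and GR starved (chr3:52267674-52267884, plus strand) and the next to LSD1 fed and GR starved (chr3:52267908-52268109, plus strand).
Foxo3 second intron, 25 kb: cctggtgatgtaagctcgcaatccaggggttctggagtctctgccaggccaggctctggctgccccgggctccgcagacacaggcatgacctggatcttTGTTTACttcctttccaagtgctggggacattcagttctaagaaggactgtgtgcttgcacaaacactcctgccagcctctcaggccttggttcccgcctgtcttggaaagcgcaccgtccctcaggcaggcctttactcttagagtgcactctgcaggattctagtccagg
Foxo3 second intron, 72 kb: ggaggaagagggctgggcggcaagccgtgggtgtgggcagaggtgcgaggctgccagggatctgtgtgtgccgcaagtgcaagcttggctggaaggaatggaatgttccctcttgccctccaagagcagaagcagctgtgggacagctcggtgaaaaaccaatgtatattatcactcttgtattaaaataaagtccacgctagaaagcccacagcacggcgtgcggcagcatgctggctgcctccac
Foxo6 intron, 10 kb: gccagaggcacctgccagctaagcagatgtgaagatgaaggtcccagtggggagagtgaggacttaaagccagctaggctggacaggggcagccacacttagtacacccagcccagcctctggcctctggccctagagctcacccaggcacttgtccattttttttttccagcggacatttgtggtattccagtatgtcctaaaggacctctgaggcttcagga
Foxo6 promoter: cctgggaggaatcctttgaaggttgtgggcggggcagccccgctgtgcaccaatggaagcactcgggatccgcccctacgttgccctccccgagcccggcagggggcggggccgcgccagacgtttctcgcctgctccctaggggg
Foxo6 upstream, 2 kb: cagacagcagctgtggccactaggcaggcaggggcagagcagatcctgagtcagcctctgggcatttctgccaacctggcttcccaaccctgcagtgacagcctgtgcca
Foxo1 promoter, GR fed and GR starved: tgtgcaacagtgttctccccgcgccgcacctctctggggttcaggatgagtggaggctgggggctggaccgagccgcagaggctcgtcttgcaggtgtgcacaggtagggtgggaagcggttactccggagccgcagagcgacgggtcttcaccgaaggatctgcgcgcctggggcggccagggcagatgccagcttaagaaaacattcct
Foxo1 promoter, LSD1 fed and GR starved: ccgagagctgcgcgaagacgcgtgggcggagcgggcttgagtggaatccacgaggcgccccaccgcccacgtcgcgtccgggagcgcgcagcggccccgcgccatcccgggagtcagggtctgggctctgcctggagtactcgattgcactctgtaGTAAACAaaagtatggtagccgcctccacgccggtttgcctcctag

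GR peaks lay in the windows of 3 FoxO genes in fed muscle and of all 4 in starved muscle, against 43.1% and 66.5% of all RefSeq genes. In fed muscle there were 13 GR peaks, of which 1 was at Foxo1, 5 at Foxo3, 0 at Foxo4 and 7 at Foxo6. In starved muscle there were 32, of which 8 were at Foxo1, 18 at Foxo3, 1 at Foxo4 and 5 at Foxo6. The 1 peak at Foxo4 was nearest to the TSS of another gene, Med12. When peaks were assigned by the nearest TSS, 3 FoxO genes had a GR peak in each condition. Foxo1 and Foxo3 thus carried more GR peaks in starved muscle and Foxo6 fewer. The whole GR list was also longer in starved muscle, with 37783 peaks against 14108 in fed muscle. The order of the sums turned around at the limit named in the methods: with q-values limited to 0.01, 8 GR peaks remained in fed and 6 in starved muscle. In fed and starved muscle, Foxo1 then had 0 and 2, Foxo3 3 and 3, Foxo4 0 and 0, and Foxo6 5 and 1. At that limit 2 FoxO genes had a GR peak in fed muscle and 3 in starved muscle, against 33.6% and 40.6% of all genes.

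LSD1 showed another distribution. Its peaks lay at 3 FoxO genes in fed muscle and at 2 in starved muscle, against 51.1% and 83.7% of all genes. The 11 LSD1 peaks in fed muscle comprised 3 at Foxo1, 5 at Foxo3, 0 at Foxo4 and 3 at Foxo6. The 8 in starved muscle comprised 3 at Foxo1, 5 at Foxo3 and 0 at Foxo4 and Foxo6. The LSD1 starved list as deposited was the longer one, with 66332 peaks against 16616 in fed muscle, while the FoxO windows held fewer. The study describes the opposite: an LSD1 list for starved muscle that is far shorter than its fed list. The deposited starved list is thus perhaps a different version, which touches every LSD1 starved count and share, including those over all genes. With the same limit on the q-value, 7 LSD1 peaks remained in fed muscle, at 3 FoxO genes, and 1 in starved muscle, at Foxo3, against 32.4% and 24.0% of all genes.

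The windows differ in length, from 60.0 kb at Foxo4 and Foxo6 to 124.9 kb at Foxo3, so densities were also compared. Per 100 kb of window, the 4 FoxO genes together had 3.65 GR peaks in fed and 8.97 in starved muscle, against 0.583 and 1.56 per 100 kb over the autosomes, which include intergenic deserts. For LSD1 the densities were 3.08 and 2.24, against 0.685 and 2.74 over the autosomes. Foxo6 had 11.7 GR peaks per 100 kb in fed muscle, a density reached or exceeded by 0.348% of all genes. This density includes the peaks 4.12, 3.45 and 2.51 kb upstream, which were nearest to the TSS of another gene, Foxo6os. Foxo3 had 14.4 per 100 kb in starved muscle, reached or exceeded by 3.85% of genes.

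**Figure D1:**
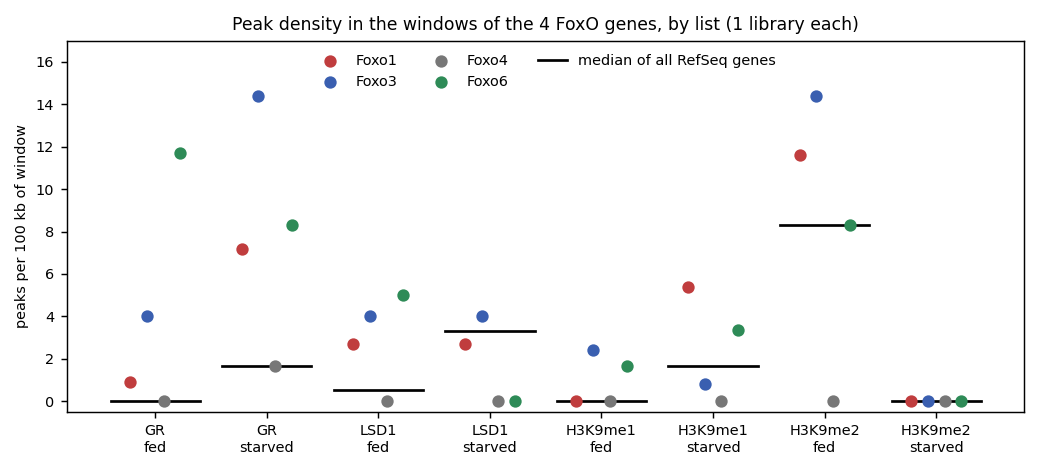
Peaks per 100 kb of window (vertical axis) for each FoxO gene (coloured points) in each of the 8 peak lists (horizontal axis, 1 library each); black lines give the median over all RefSeq genes. Foxo6 stands at 11.7 in GR fed and Foxo3 at 14.4 in GR starved, and no FoxO gene has a peak in H3K9me2 starved. The Foxo6 value in GR fed includes peaks nearest to the TSS of Foxo6os.

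Foxo3 held the strongest GR site of the family. Foxo3 lies on chromosome 10 (42181845-42276695, minus strand, 2 transcripts, RefSeq gene ID 56484), and its second intron spans 76.9 kb. The GR fed peak in this intron (chr10:42251226-42251569), 25.3 kb downstream of the TSS, had a fold enrichment of 10.9 and a q-value of 6.85e-85. It ranked 70th by fold among 14108 GR fed peaks. In starved muscle the peak at the same place (chr10:42251181-42251615) had a fold of 8.79 and a q-value of 3.6e-69, rank 77 of 37783. Only 0.363% of all genes had a GR peak as high in their window in fed muscle, and 0.439% in starved muscle. LSD1 had a modest peak there in fed muscle, with a fold of 3.83 and a q-value of 0.00420, and none in starved muscle.

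A second GR site lay deeper in the same intron, 71.5 kb from the TSS. GR had a fold of 5.70 in fed muscle (q-value 3.34e-20) and of 4.05 in starved muscle (q-value 1.3e-10). The LSD1 fed peak there had a fold of 3.81 and a q-value of 0.0230, and again LSD1 had no peak in starved muscle. The other GR fed peaks of the intron, 45.7 and 48.9 kb from the TSS, were weak, with folds of 2.90 and 2.87, and both were overlapped by starved peaks.

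At the Foxo3 promoter GR and LSD1 were called in both conditions. A promoter here begins 1000 bp upstream of a TSS and ends 100 bp downstream. The GR fed peak had a fold of 3.00 and a q-value of 0.00715. The GR starved peak was a broad one of 2071 bp that covered the TSS (chr10:42274947-42277017), with a fold of 2.62 and a q-value of 0.0286. Its midpoint lay 0.713 kb into the gene, in the first intron, so it does not count as a promoter peak by midpoint. LSD1 had its highest Foxo3 peak in fed muscle at the TSS, with a fold of 5.11 and a q-value of 9.63e-05, and a weaker one 0.926 kb upstream with a fold of 3.63. In starved muscle the LSD1 promoter peak had a fold of 3.69 and a q-value of 0.0160. The highest LSD1 starved peaks lay elsewhere: 1 of 55 bp in the third intron, 85.0 kb from the TSS, with a fold of 4.72 and a q-value of 0.000773, and 1 in the second intron, 11.5 kb from the TSS, with a fold of 4.09. Neither was overlapped by a GR peak.

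The remaining GR starved peaks at Foxo3 were weak. When overlapping GR and LSD1 peaks were joined, the Foxo3 window held 21 sites, of which 11 were called in GR starved only. Over the whole GR starved list, 24.5% of peaks were overlapped by a GR fed peak. With q-values limited to 0.01, 3 of the 18 GR starved peaks remained, which is also the number that remained of the 5 GR fed peaks.

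Foxo1, on chromosome 3 (52268337-52350109, plus strand, gene ID 56458), had fed GR and LSD1 peaks in and around its promoter. The only GR fed peak lay 0.562 kb upstream of the TSS (chr3:52267666-52267884), with a fold of 2.83 and a q-value of 0.0275. In starved muscle the GR peak was longer, 713 bp (chr3:52267674-52268386), and reached the TSS, with a fold of 2.65 and a q-value of 0.00401. LSD1 fed had 1 peak 0.329 kb upstream of the TSS, with a fold of 3.77 (q-value 0.0292), and 1 in the untranslated part of exon 1, with a fold of 4.32 (q-value 0.00471). In starved muscle a single LSD1 peak spanned the TSS, with a fold of 3.62 and a q-value of 0.0160. Joined, these peaks formed a stretch of 1283 bp around the TSS with peaks of all 4 lists. The GR fed peak in it ended before the TSS and overlapped no LSD1 peak of either condition.

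A second fed LSD1 site lay upstream of Foxo1, 5.63 kb from the TSS, with a fold of 4.26 and a q-value of 0.00878. In starved muscle it was overlapped by a GR peak with a fold of 2.66, and by no LSD1 peak. The highest GR starved peaks, in the first intron 31.7 kb from the TSS and upstream 10.3 kb from it, had folds of only 2.85 and 2.68. The first intron, 75.6 kb long, held 4 GR peaks and 2 LSD1 peaks in starved muscle and none of either in fed muscle. The higher of these LSD1 peaks, 35.3 kb from the TSS, had a fold of 3.67 and a q-value of 0.0569. Of the 8 GR starved peaks at Foxo1, 2 passed a q-value of 0.01.

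**Figure D2:**
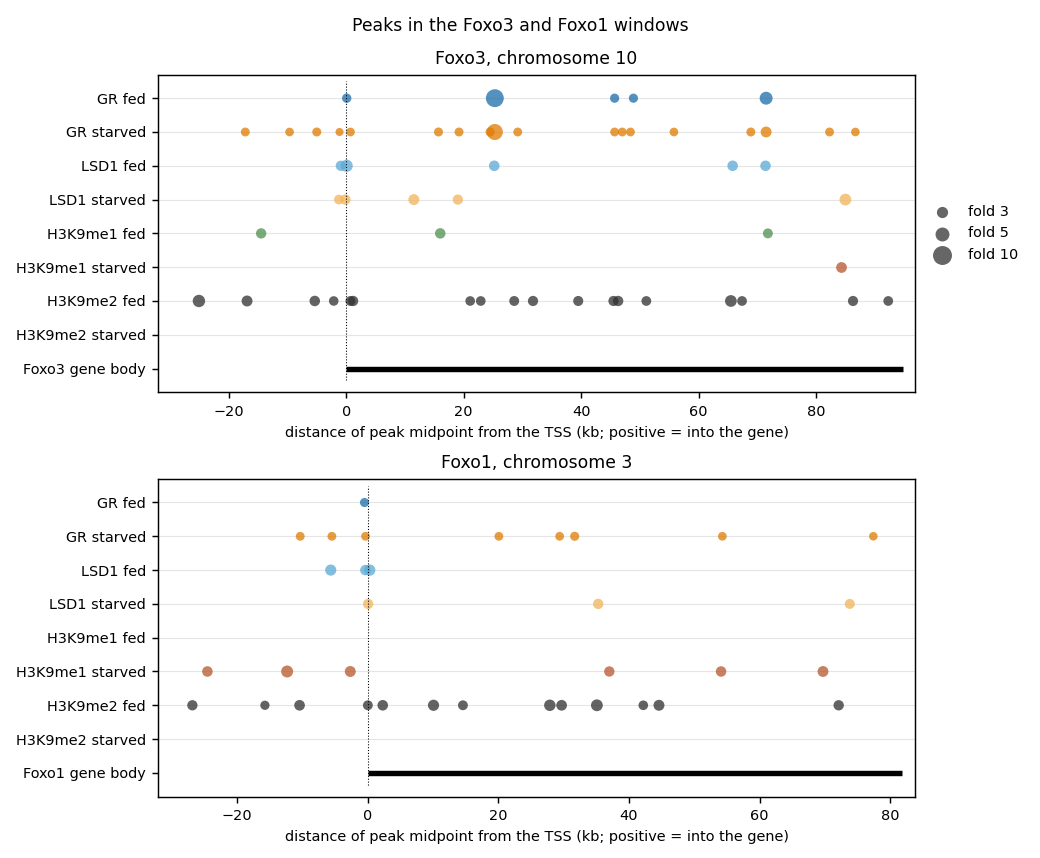
Peaks in the windows of Foxo3 (top) and Foxo1 (bottom), drawn at the distance of the peak midpoint from the TSS in kb (horizontal axis, positive into the gene) in 1 row per list; the area of a point is proportional to the fold enrichment and the bar shows the gene body. The 25.3 kb site of Foxo3 stands out in both GR rows with folds of 10.9 and 8.79, whereas the GR starved peaks of Foxo1 are spread over the window with folds of at most 2.85.

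Foxo6, on chromosome 4 (120267078-120287261, minus strand, gene ID 329934), had 7 GR peaks within 11.0 kb of its TSS in fed muscle. The highest lay in its single intron, 9.64 kb from the TSS (chr4:120277334-120277903), with a fold of 4.20 and a q-value of 4.83e-09. The next lay 2.51 kb upstream, with a fold of 4.17 and a q-value of 1.59e-06. The promoter peak had a fold of 3.00 and a q-value of 0.00447. Another pair lay at the 5′ end of Foxo6os, a divergent noncoding gene whose TSS is 3.87 kb upstream, with folds of 3.35 in its promoter and 3.55 in its exon. The peak 2.51 kb upstream was also nearer to the Foxo6os TSS than to the TSS of Foxo6. The folds of the 7 peaks were all moderate, and 5 of the 7 passed a q-value of 0.01.

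In starved muscle 4 of these Foxo6 sites were called again for GR, each at a lower fold. The upstream site had a fold of 3.11 (q-value 0.00176), the promoter 2.28 (q-value 0.0665) and the intron site 2.34 (q-value 0.0407). A further starved GR peak, 29.6 kb from the TSS, had a fold of 2.55. The LSD1 intron peak in fed muscle (chr4:120277145-120278042) was among the strongest of its list, with a fold of 6.12, a q-value of 8.97e-08 and rank 239 of 16616. Only 0.886% of all genes had an LSD1 fed peak as high in their window. LSD1 also had a promoter peak with a fold of 4.19 (q-value 0.00229) and an intron peak 4.29 kb from the TSS with a fold of 4.10 (q-value 0.00762), and each of the 3 LSD1 peaks overlapped a GR fed peak. None of the 3 was called in starved muscle. Most LSD1 fed peaks were not: 23.1% of the whole list were overlapped by an LSD1 starved peak. Thus Foxo6 had LSD1 peaks in fed muscle alone in these libraries, while 83.7% of all genes had an LSD1 peak in starved muscle. With q-values limited to 0.01, only 24.0% of all genes had an LSD1 starved peak, and of the FoxO genes only Foxo3 did.

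Foxo4, on the X chromosome (101254528-101260873, plus strand, gene ID 54601), had almost no peaks. Its single peak, in GR starved (chrX:101273963-101274103), had a fold of 2.83 and a q-value of 0.0160. This peak lay 19.5 kb downstream of the Foxo4 TSS in the promoter of Med12, which encodes a subunit of the Mediator complex, and Med12 had the nearest TSS. Foxo4 itself therefore had no peak in its body or promoter in any of the 8 lists. The X chromosome as a whole carried few peaks: 0.599 GR fed peaks per Mb against 5.83 on the autosomes, and 7.33 H3K9me2 fed peaks per Mb against 70.8. A GR fed peak was found at 8.88% of genes on X and at 44.8% of autosomal genes, and an H3K9me2 fed peak at 40.1% and 98.3%. The part of the chromosome in the Foxo4 result was not tested.

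**Figure D3:**
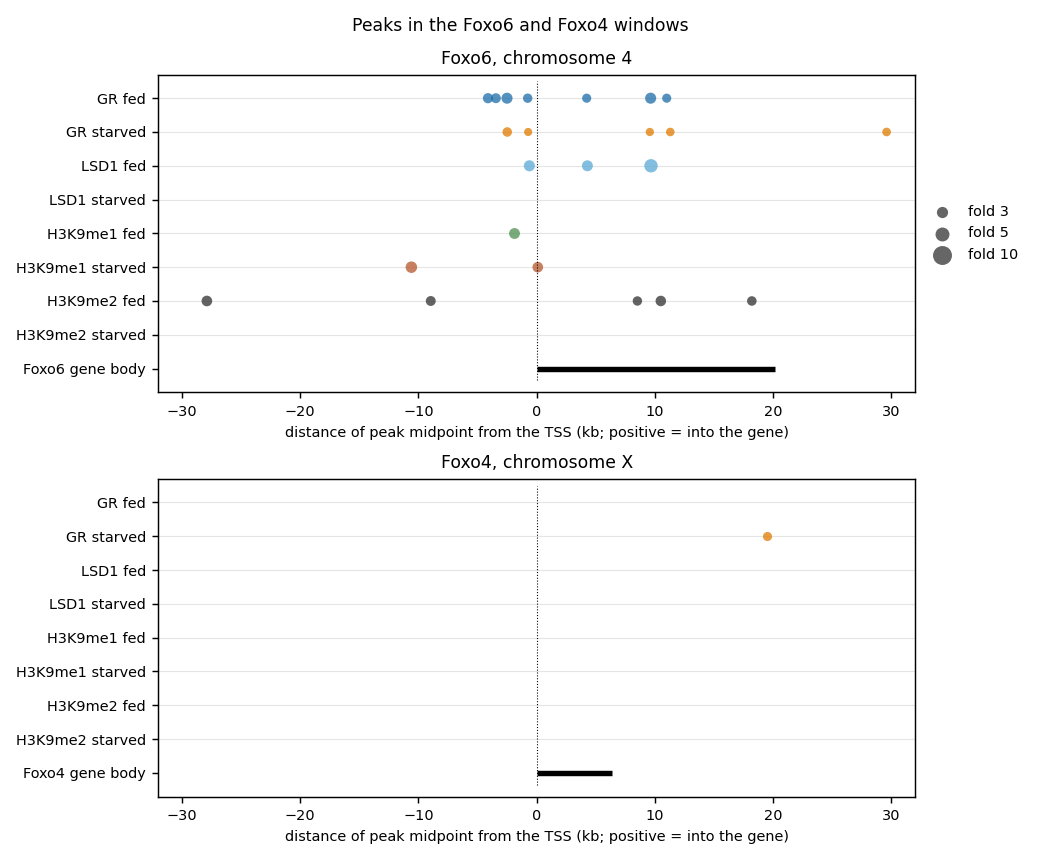
Peaks in the windows of Foxo6 (top) and Foxo4 (bottom), drawn as distance of the midpoint from the TSS in kb (horizontal axis, positive into the gene) in 1 row per list; the area of a point is proportional to the fold enrichment and the bar shows the gene body. The GR and LSD1 fed peaks of Foxo6 lie between 4.12 kb upstream and 11.0 kb downstream of the TSS, the LSD1 starved row is empty, and Foxo4 has 1 GR starved peak at 19.5 kb, in the promoter of Med12.

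Promoters gave a simpler picture. In fed muscle GR and LSD1 peaks were both centred in the promoters of Foxo1, Foxo3 and Foxo6, that is 3 of 4 genes. Over all genes 13.4% had a GR fed promoter peak, 22.4% an LSD1 fed one, and 9.34% both. In starved muscle GR was centred in the promoters of Foxo1 and Foxo6 and LSD1 in those of Foxo1 and Foxo3, against 23.3% and 16.2% of all genes. Foxo1 was the 1 member with all 4, against 4.15% of all genes. When any base of a peak in the promoter was counted, a choice made after seeing the data, Foxo3 joined the GR starved promoters and the other counts stayed. With this rule 16.0% of genes had a GR fed, 28.9% a GR starved, 25.4% an LSD1 fed and 18.2% an LSD1 starved promoter peak.

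Most GR sites of fed muscle were called again after starvation. In the FoxO windows, 10 of the 13 GR fed peaks were overlapped by a GR starved peak by at least 1 bp, or 76.9% (exact binomial 95% interval 46.2 to 95), against 65.8% of the whole list. In the other direction 10 of 32 GR starved peaks were overlapped, 31.2% (16.1 to 50), against 24.5%. For LSD1, 2 of 11 fed peaks were overlapped in starved muscle, 18.2% (2.28 to 51.8), against 23.1%. They were the peak at the Foxo3 TSS and the peak in exon 1 of Foxo1. The intervals cover counting error only, and each contains the share of the whole list. With q-values limited to 0.01 in both lists, the share was 37.5% for GR fed by GR starved peaks and 0 for LSD1 fed by LSD1 starved peaks.

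In all 10 overlapping GR pairs the fold was lower in starved muscle, with ratios of starved to fed from 0.557 at the Foxo6 intron site to 0.935 at the Foxo1 promoter. The ratio was 0.804 at the strong Foxo3 site and 0.711 at the site 71.5 kb from the TSS. Over all 9287 overlapping GR pairs the median ratio was 0.878 (quartiles 0.771 and 0.981), and 78.7% were below 1, so the direction at the FoxO genes was the one most pairs had. The ratio at the Foxo6 intron site was lower than in most pairs, with 3.56% at or below it. For LSD1 the ratios were 0.723 at the Foxo3 TSS and 0.839 for the peak in exon 1 of Foxo1, with a median of 0.854 over 3834 pairs. The fold depends on the input and the depth of each library, which were not compared here.

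**Figure D4:**
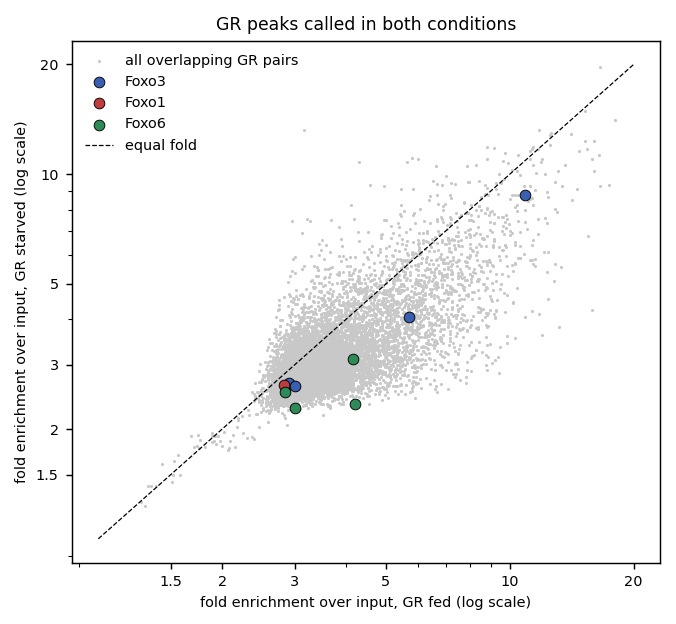
Fold enrichment over input of GR peaks called in fed (horizontal axis) and starved muscle (vertical axis), both on log scales. Grey points are all 9287 overlapping pairs, coloured points the 10 pairs in FoxO windows, and the dashed line marks equal fold; all 10 FoxO pairs lie below the line, and the Foxo3 pair at 10.9 and 8.79 lies far from the others.

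GR and LSD1 overlapped at FoxO genes about as often as elsewhere in fed muscle. Of the 13 GR fed peaks, 6 were overlapped by LSD1 fed, 46.2% (19.2 to 74.9), against 48.3% of the whole list, and 6 of 11 LSD1 fed peaks were overlapped by GR fed, 54.5% (23.4 to 83.3), against 42.8%. In starved muscle 4 of 32 GR peaks were overlapped by LSD1, 12.5% (3.51 to 29.0), against 14.7%. From the LSD1 side 4 of 8 starved peaks were overlapped by GR, 50% (15.7 to 84.3), against 9.14% of the whole LSD1 starved list, and here the interval did not contain the share of the list. All 4 of these lay at Foxo1 and Foxo3. The FoxO windows held 8.97 GR starved peaks per 100 kb, against 1.56 over the autosomes, and the part of this density in the overlap was not tested. With q-values limited to 0.01, no GR starved peak in the FoxO windows was overlapped by an LSD1 starved peak. Joined over the 4 lists, the 64 GR and LSD1 peaks formed 40 sites, of which 2 held peaks of all 4 lists, the stretches over the TSS of Foxo1 and of Foxo3. In the Foxo1 stretch the GR fed peak overlapped no LSD1 peak. A further 4 sites were called in GR fed, GR starved and LSD1 fed but not in LSD1 starved, 2 at Foxo3 and 2 at Foxo6. The 19 sites called in GR starved only made up the largest class. These classes were not counted over all genes. Over the whole GR starved list, 24.5% of peaks were overlapped by GR fed and 14.7% by LSD1 starved, so most lacked either partner.

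The sequences of the sites were searched for the GRE, written as the half-site AGAACA, 3 free bases and the half-site TGTTCT, on both strands. Within 300 bp around the midpoint, 1 of 13 GR fed peaks held a GRE with at most 1 mismatch, 7.69% (0.195 to 36.0), against 1.78% of all GR fed peaks. None of 32 GR starved peaks did, which allows a share of up to 10.9%, against 0.516% of all. The single match, AGAACAtcaGGTTCT with capitals for the half-sites, lay near the Foxo6os exon (chr4:120291508-120291522), across the edge of a GR fed peak that had no starved counterpart. With whole peaks searched, 0 of 13 GR fed peaks held such a match, which allows a share of up to 24.7%, against 2.17% of the list. The strongest site, in the second intron of Foxo3, held no sequence within 2 mismatches of the GRE. The nearest sequence in the printed stretch had 3. With whole peaks searched, 2 of 13 GR fed peaks held a match with at most 2 mismatches, 15.4% (1.92 to 45.4), against 9.75% of the list. For GR starved it was 2 of 32, 6.25% (0.766 to 20.8), against 4.33%, and for LSD1 fed 1 of 11, 9.09% (0.230 to 41.3), against 2.27%. Looser matches with 2 mismatches lay in 3 other sites: AGTACAggcTGTACT in the second intron of Foxo3 (chr10:42231150-42231164, called in GR fed and GR starved), AGAACAgctTGTTGC in the same intron (chr10:42247326-42247340, GR starved), and AGAGCAgatGGTTCT in the Foxo6 intron (chr4:120277420-120277434, GR fed and LSD1 fed).

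The forkhead core was present at the strong Foxo3 site, as TGTTTAC (chr10:42251464-42251470), within the GR fed, GR starved and LSD1 fed peaks. It was present in the Foxo1 promoter as GTAAACA (chr3:52268064-52268070), within the GR starved and LSD1 fed peaks. Within 300 bp around the midpoint, 1 of 13 GR fed peaks held it, against 4.78% of the list, 4 of 32 GR starved peaks, 12.5% (3.51 to 29.0), against 3.83%, and 2 of 11 LSD1 fed peaks, 18.2% (2.28 to 51.8), against 3.55%. None of the 8 LSD1 starved peaks did, which allows up to 36.9%, against 3.83%. All but the GR starved and LSD1 starved shares rest on these 2 places. A match describes the letters only. The nuclear respiratory factor 1 motif, GCGCA directly followed by TGCGC, was searched without mismatches and was in none of the GR or LSD1 peaks of the FoxO windows. This exact form is rare, so its absence says little. With whole peaks searched it was in 0.632% of all GR fed and 0.510% of all GR starved peaks. For LSD1 it was in 0.814% of fed and 0.0984% of starved peaks. Variants were not counted, and the Foxo3 promoter printed below holds one, GCGCA followed by GGCGC. In the RefSeq promoter table of 32851 promoters, from 250 bases before to 50 after the TSS, 0.164% held a GRE with at most 1 mismatch, 0.971% the nuclear respiratory factor 1 motif and 3.65% the forkhead core. The table held Foxo1 and Foxo3, which had none of the 3 in the forms searched. The 250 bases before the Foxo3 TSS (chr10:42276696-42276945, minus strand, build GRCm38.p6), printed because LSD1 and GR peaks covered part of them in both conditions, had a GC content of 76.4%.
Foxo3 promoter: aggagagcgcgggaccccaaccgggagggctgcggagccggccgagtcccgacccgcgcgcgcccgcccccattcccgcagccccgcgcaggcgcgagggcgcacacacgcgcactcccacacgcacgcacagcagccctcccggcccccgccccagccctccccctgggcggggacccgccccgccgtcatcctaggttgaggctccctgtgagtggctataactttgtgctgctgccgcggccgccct

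H3K9me2 peaks lay at 3 FoxO genes in fed muscle and at none in starved muscle, against 95.5% and 10.2% of all genes. There were 36 in fed muscle, 13 at Foxo1, 18 at Foxo3, 0 at Foxo4 and 5 at Foxo6. The whole H3K9me2 list numbered 171402 peaks in fed against 6624 in starved muscle, so the absence in starved muscle was shared with nearly all genes. The density over the 4 genes in fed muscle was 10.1 per 100 kb, against 7.08 over the autosomes. The highest H3K9me2 peak of each gene was overlapped by no GR or LSD1 peak: at Foxo3 25.1 kb upstream with a fold of 5.24 (q-value 1.4e-05, wholly in repeat-masked sequence), at Foxo1 in the first intron 35.1 kb from the TSS with a fold of 4.76 (q-value 0.000125, next to the LSD1 starved peak 35.3 kb from the TSS), and at Foxo6 27.9 kb upstream with a fold of 3.87 (q-value 0.00749).

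Of the 36 H3K9me2 fed peaks, 5 were overlapped by a GR starved peak, 13.9% (4.67 to 29.5), against 3.12% of the list. The FoxO windows also held more GR starved peaks, 8.97 per 100 kb against 1.56 over the autosomes. The part of this density in the overlap was not tested. At Foxo1, 1 of them lay at the TSS (chr3:52268338-52268439), with a fold of 3.32 and a q-value of 0.0127, where LSD1 peaks of both conditions and the GR starved peak overlapped it, and another 10.4 kb upstream with a fold of 3.88. At Foxo3, 2 lay under the broad GR starved peak near the TSS, with folds of 3.31 and 3.63, and 1 lay 45.5 kb from the TSS with a fold of 3.53, which a GR fed peak also overlapped. H3K9me2 fed overlapped 1 of 13 GR fed peaks, 7.69% (0.195 to 36), against 16.5% of the list, and 1 of 11 LSD1 fed peaks, 9.09% (0.230 to 41.3), against 16.8%. At the strong Foxo3 site, the site 71.5 kb from the TSS and the Foxo6 sites no H3K9me1 or H3K9me2 peak overlapped in either condition, although a 49 bp H3K9me1 fed peak with a fold of 3.36 ended next to the site 71.5 kb from the TSS.

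H3K9me1 was called at 2 FoxO genes in fed muscle and at 3 in starved muscle, against 38.0% and 65.6% of all genes. The 4 fed peaks comprised 3 at Foxo3 and 1 at Foxo6, and the 9 starved peaks comprised 6 at Foxo1, 1 at Foxo3 and 2 at Foxo6. The 6 at Foxo1, 5.37 per 100 kb, were a density reached by 2.52% of genes. The highest of them lay 12.3 kb upstream, with a fold of 4.89 and a q-value of 0.000434. The highest starved peak at Foxo6 lay 10.6 kb upstream, in an intron of Foxo6os, with a fold of 4.53 (q-value 0.00139), and 1 at the Foxo6 TSS had a fold of 3.87 (q-value 0.0149). The Foxo3 starved peak had a fold of 3.97 (q-value 0.0266). In fed muscle the highest H3K9me1 peaks had folds of 3.77 at Foxo3, 16.0 kb from the TSS (q-value 0.0322, overlapped by a GR starved peak), and of 4.03 at Foxo6, 1.92 kb upstream (q-value 0.0129). None of the 4 fed peaks was overlapped by a starved one, against 2.79% of the whole list.

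Genes that act on FoxO proteins or are activated by them were counted in the same way. Both lists were chosen with earlier results of these data known, so they are no independent support. Of 25 regulators of FoxO (insulin receptor, PI3K and AKT signalling, deacetylases, ubiquitin enzymes and exporters), 22 had a GR peak in the window in fed and 24 in starved muscle, against 43.1% and 66.5% of all genes, and 24 and 25 had an LSD1 peak, against 51.1% and 83.7%. Their windows were longer than most, with a median of 95.9 kb against 60.0 kb over all genes. Per 100 kb their median was 1.88 GR fed peaks, against 0 over all genes, and 3.04 GR starved peaks, against 1.67. GR had promoter peaks at 12 of the 25 in fed and 13 in starved muscle, against 13.4% and 23.3% of all genes, and LSD1 at 14 in each, against 22.4% and 16.2%. Examples with the highest GR fed promoter fold were Sgk1, a kinase that phosphorylates FoxO like AKT (5.74 in fed, 4.48 in starved muscle), Akt2, the AKT isoform of insulin action (3.59 and 3.35), and Irs2, an insulin receptor substrate (3.57 and 4.01).

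All 24 FoxO target genes on the list had a GR peak in both conditions, against 43.1% and 66.5% of all genes, and 22 and 24 had an LSD1 peak in fed and starved muscle, against 51.1% and 83.7%. Some of these genes, Ddit4, Trim63 and Fbxo32, were already shown by the study as bound by GR and LSD1 in fed muscle. The windows of the 24 genes had the same median length as all genes, 60.0 kb. Per 100 kb their median was 3.33 GR fed and 7.09 GR starved peaks, against 0 and 1.67 over all genes. GR had promoter peaks at 16 of the 24 in fed and 17 in starved muscle, against 13.4% and 23.3% of all genes, and LSD1 at 17 and 16, against 22.4% and 16.2%. Trim63, which encodes the atrophy ubiquitin ligase MuRF1, had the highest GR promoter folds of the list in both conditions, 6.40 in fed and 8.70 in starved muscle. Fbxo32, which encodes the ubiquitin ligase atrogin-1, had 4.30 and 5.02. Pdk4, a kinase that restrains glucose oxidation, had 3.64 and 4.52, and Bcl2l11, which encodes the apoptotic protein BIM, had 3.70 and 3.28.

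The other forkhead genes were near the level of all genes in their windows, with fewer GR promoter peaks in fed muscle. Of 40 annotated, 19 had a GR peak in fed and 27 in starved muscle, or 47.5% and 67.5%, against 43.1% and 66.5% of all genes. An LSD1 peak was found at 17 and 32, or 42.5% and 80.0%, against 51.1% and 83.7%. Their median was 0 GR fed and 1.67 GR starved peaks per 100 kb, as over all genes. A GR fed promoter peak was called at 2 of the 40, Foxn2 (fold 3.21) and Foxd2 (3.03), against 13.4% of all genes. GR starved promoter peaks were called at 8, against 23.3%.

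**Figure D5:**
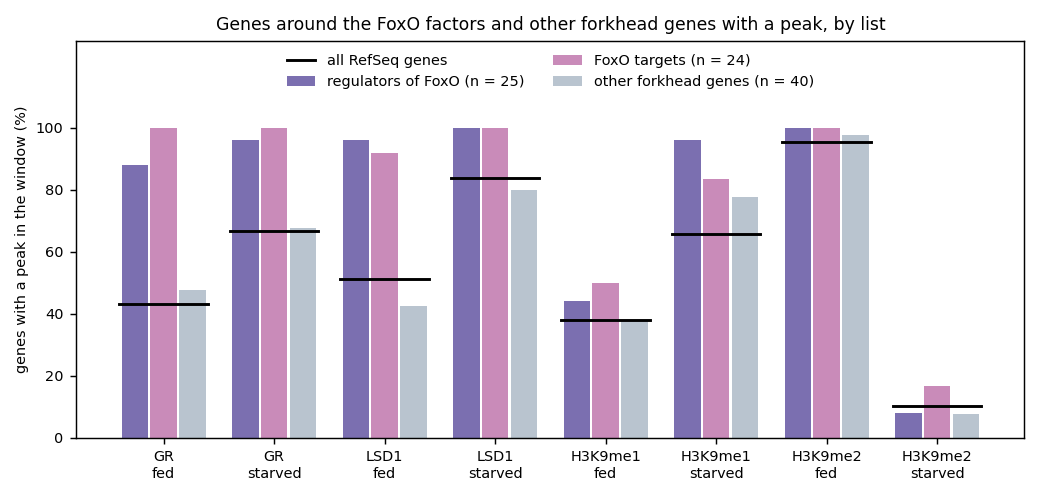
Share of genes with a peak in the window (vertical axis, percent, from 0) in each of the 8 lists (horizontal axis) for 25 regulators of FoxO, 24 FoxO targets and 40 other forkhead genes (bars); black lines give the share of all RefSeq genes. All 24 targets have a GR peak in both conditions, and the other forkhead genes stand near the line, with 47.5% in GR fed. The lists were chosen with earlier results of these data known.

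Genes whose profile over the 8 lists was most like that of a FoxO gene were found by the Euclidean distance between log2(peaks per 100 kb + 1) values, among genes with a window of 0.5 to 2 times its length. For Foxo3, Camk2b lay at a distance of 0.746, with 5 GR fed and 15 GR starved peaks. For Foxo1 they were Crcp (0.633) and Krba1 (0.639), each with 1 GR fed peak and with 5 and 4 GR starved peaks. For Foxo6, Gm536 (1.24) and Chit1 (1.37) were nearest, and both likewise lacked LSD1 starved peaks while having 6 and 5 LSD1 fed peaks. These distances were larger than at Foxo1 and Foxo3. For Foxo4, 17 genes tied at a distance of 0, of which Araf and Arc are the first in alphabetical order.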

How the data were processed

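Per the labels, skeletal muscle of fed and of 24 h starved mice was profiled, with 1 library per group. Reads were demultiplexed with bcl2fastq 2.20.0.422 and mapped by the authors to mm10 with Bowtie (the peak names carry Bowtie2). According to their methods, reads falling in a human (hg38) blacklist were removed. MACS2 was run by the authors in its broad mode, against input. Their methods state that peaks above a false discovery rate of 0.01 were dropped, but such peaks are in all 8 deposited lists. The lists were used as deposited, and that limit was an alternative. The deposited lists give, per peak, the fold enrichment over input (a ratio), the −log10 of the p-value and of the q-value, and a score by the authors that was not used here.

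Peak midpoints were assigned to 45756 RefSeq transcripts of 26180 genes on GRCm38. Peaks were counted per gene window, and lists were compared by overlap of at least 1 bp. With 1 library per group no test was run. Shares are given with exact (Clopper-Pearson) 95% binomial intervals. Counting, overlap and motif search were tested on simulated data. Python 3.11.15, numpy 2.4.6, scipy 1.17.1 and matplotlib 3.10.9 were used.

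The named peaks of each gene are all GR and LSD1 promoter peaks, the 2 of highest fold per list, mark peaks that overlap GR or LSD1 peaks, and the highest mark peak per list. Those named beyond this rule were chosen after their values were seen. From each gene list at most 4 examples with the highest GR fed promoter fold are named. The 2 genes with the profile nearest to that of each FoxO gene are also named. Some genes that these rules select are not reported here. The 4 genes, the gene lists and the motifs were chosen with earlier results of these data known, so the lists are no independent support. The alternatives were a q-value of 0.01 or less, a fold enrichment of at least 5, a distance of 10 kb, peaks within 1 kb merged, the nearest TSS, overlap of 50% or more of the shorter of both peaks, midpoints closer than 500 bp, whole peaks in the motif search, other mismatch numbers and, added after seeing the data, promoters touched by any base of a peak.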

Additional observations from a re-analysis of the deposited data

How the results depend on the processing

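The strictness of the peak lists mattered most. At a q-value of 0.01 or less, the FoxO windows held 8 GR fed, 6 GR starved, 7 LSD1 fed, 1 LSD1 starved, 0 H3K9me1 fed, 2 H3K9me1 starved and 13 H3K9me2 fed peaks, LSD1 starved peaks lay at 1 FoxO gene and H3K9me1 fed peaks at 0. The overlap of GR fed by GR starved peaks was then 37.5%, and those of LSD1 fed by LSD1 starved and of GR starved by LSD1 starved peaks were 0. At a fold enrichment of at least 5 there remained 2 GR fed, 1 GR starved, 2 LSD1 fed, 0 LSD1 starved, 0 H3K9me1 fed, 0 H3K9me1 starved and 1 H3K9me2 fed peaks, at 1, 1, 2, 0, 0, 0 and 1 FoxO genes. The share of GR fed peaks with a GRE was 0 with whole peaks searched and 0 with no mismatch allowed. The other alternatives left each count within 1.5 times its main value and each share within its interval. No paired analysis was possible because each group had 1 library. Differences between conditions have no replicate check, and folds and peak numbers depend on a depth that is unknown.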
